A study of Homo sapiens with 15 samples.

Results

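Interferon-stimulated genes were followed in BEAS-2B cells, an immortalized line of human bronchial epithelium, exposed to polyethylene terephthalate nanoplastics (PET-NPLs). The 44 genes were those of a fixed list of symbols (interferon-induced effectors, their regulators and the ISG15 conjugation system). They were found by Entrez number among the 28395 rows of the count table. This matching used no measured value, but the list was chosen with earlier results of these data known. All 44 had a row, and 43 passed the filter on low counts. The member that did not pass, RSAD2 (viperin, an antiviral enzyme), held between 0 and 12 counts per sample. Exposed cells received PET-NPLs at 50 µg/mL, with the medium renewed every few days, and were collected after 24 h (2 samples), 15 weeks (2 samples) or 30 weeks (4 samples). Passage-matched controls without particles were collected at 24 h (2 samples), 15 weeks (2 samples) and 30 weeks (3 samples). Both arms are of 1 cell line and shared the same serum-containing medium, which also held Plasmocin, an agent against mycoplasma. No source used here says whether replicates were separate cultures, so the spread behind the p-values may be technical. That spread was estimated per gene over all 15 samples, so a test at 1 time point also draws on the spread at the others. Between replicates of a condition, the chi-square per gene (larger where replicates differ more) was 9.66 to 17.0 at the first 2 time points. At 30 weeks it was 17.6 to 147. By the batch given in the labels, all 8 samples of the first 2 time points are batch 1, and all 7 of 30 weeks are batch 2.

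Interferons are secreted proteins that cells release on sensing foreign nucleic acid. Type I interferon binds the receptor IFNAR1/IFNAR2, whose kinases JAK1 and TYK2 activate latent transcription factors, and these join IRF9 in a complex that binds the interferon-stimulated response element (ISRE) in the promoters of its target genes. The targets include RNA sensors, enzymes that degrade viral RNA, membrane proteins that block entry or release of virions, and the ubiquitin-like protein ISG15 with the enzymes that attach and remove it. Airway epithelium uses this system as an early barrier to respiratory viruses, and many of the targets are also transcribed at a basal level without added interferon.

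The promoters were searched because the ISRE is the element through which these genes are known to be induced. Of the 44 members, 36 had a promoter window in RefSeq (GRCh38.p14), taken as the 250 bases before and 50 bases after the annotated start. The motif GAAANNGAAA, or TTTCNNTTTC on the other strand, occurred in the window of 25 of these 36 members (69.4%), against 3.57% of all 35116 windows and 4.1% of the 18304 genes of the count table with a window. It occurred at least 2 times in 13 members, where overlapping matches were counted separately. TTCNNNGAA, the core of the gamma-activated site, which reads the same on both strands, occurred in 11 of 36 members (30.6%). It occurred in 7.66% of all windows and in 9.04% of the 18304 genes of the count table with a window. Members without a window were IRF7, IFIT2, IFITM2, OAS2, OASL, USP18, TRIM22 and GBP2. Stretches around the ISRE motif are shown, 5′ to 3′ on the strand of the gene, for the 6 members with a motif and the smallest adjusted p at 30 weeks. Capitals mark the 2 outer blocks of each motif, and every stretch ends before the annotated start.
MX1: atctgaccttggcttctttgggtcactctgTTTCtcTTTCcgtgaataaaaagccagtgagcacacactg
BST2: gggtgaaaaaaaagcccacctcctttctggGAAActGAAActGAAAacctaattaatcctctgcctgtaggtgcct
HERC5: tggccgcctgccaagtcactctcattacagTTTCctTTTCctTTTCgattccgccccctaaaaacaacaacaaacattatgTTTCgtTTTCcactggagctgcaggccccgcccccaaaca
ISG15: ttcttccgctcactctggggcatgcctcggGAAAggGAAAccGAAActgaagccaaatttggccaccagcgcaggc
PARP14: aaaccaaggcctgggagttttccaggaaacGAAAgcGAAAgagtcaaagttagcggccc
SAMD9: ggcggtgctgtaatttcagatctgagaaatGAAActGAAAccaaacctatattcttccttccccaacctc
On GRCh38.p14 these stretches overlap no exon of their gene in the GENCODE annotation. Those of MX1 at chr21:41431824-41431893 (plus strand) and ISG15 at chr1:1013354-1013429 (plus strand) lie between exons of the annotated gene, downstream of its first exon. The other 4 lie before the gene's first exon, with BST2 at chr19:17405715-17405790 (minus strand), HERC5 at chr4:88456964-88457084 (plus strand), PARP14 at chr3:122680780-122680838 (plus strand) and SAMD9 at chr7:93118076-93118145 (minus strand). The BST2 and ISG15 stretches held 2 overlapping motifs each, and that of HERC5 held 3. At 30 weeks, described in the paragraphs that follow, the motif was found in 4 of the 7 members with a window that rose, in all 4 that fell and in 16 of the 24 without a call. A motif match is a description of the sequence and not a measured binding site.

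Total counts per sample ran from 23143202 to 31459990. BEAS-2B cells held the epithelial keratins KRT8 and KRT18 at 127 or more CPM (TMM-scaled counts-per-million) in every sample. EPCAM and CDH1 did not exceed 27 counts per sample, KRT5 did not exceed 12, and TP63 and NKX2-1 did not exceed 3, so these 5 of the 9 epithelial markers were at or near 0. KRT7 stood on average at 1315 CPM in controls and 1376 CPM in exposed cells at 24 h, at 18.0 and 5.84 CPM at 15 weeks, and at 1.93 and 1.92 CPM at 30 weeks. KRT19 went from 11 and 10.6 CPM to 2.45 and 1.77 CPM, and then to 0.766 and 2.88 CPM. The summed level of the 9 was 1987 to 2297 CPM at 24 h, 826 to 1036 CPM at 15 weeks, 314 to 411 CPM in the 30-week controls and 880 to 1097 CPM in exposed cells of that time. At 30 weeks KRT8, KRT18 and KRT19 were called higher in exposed cells (KRT8 at 150 against 616 CPM on average, KRT18 at 194 against 338 CPM), and EPCAM, CDH1 and KRT7 were not called. Of 4 mesenchymal markers, FN1 (115 against 546 CPM) and CDH2 (81.0 against 181 CPM) were called higher, COL1A1 (55.3 against 7.36 CPM) was called lower, and VIM was not called. Among 8 leukocyte markers, CD3E and TLR7 were at or under 3 counts in every sample, and the list's summed level at 30 weeks was 2.58 to 3.51 CPM in controls and 4.91 to 6.88 CPM in exposed cells. CD14 made up this difference (1.48 CPM against 4.91 CPM on average), whereas ITGAM (0.352 against 0.159 CPM), IL3RA (1.11 against 0.961 CPM) and LYZ (0.153 against 0.0263 CPM) had lower averages in exposed cells. In bulk RNA, fewer cells of a type and less RNA per cell cannot be told apart. A set of 6 abundant small noncoding RNAs took 22.3% to 31% of the counts in the 30-week controls and 17.0% to 21.5% in exposed cells, the highest share being that of control replicate 1, whereas they took 9.75% to 12.9% at the earlier times. Exposed replicate 2 at 30 weeks stood apart, with correlations of log2 CPM over the members of 0.970 to 0.976 with the other 3 exposed samples, which correlated at 0.994 or more with each other. The part that these marker levels, shares and libraries play in the results was not tested, except where a value without a library is given.

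Levels differed widely among the members. Averaged per condition, 22 of the 44 were at or above 10 CPM in all 6 conditions, and 3 (IFI44L, RSAD2 and CMPK2) were under 1 CPM in all 6. Per kilobase of exon, the highest levels in the 30-week controls were those of ISG15 at 192 CPM per kilobase, LGALS3BP, a secreted glycoprotein, at 140, and IFI6, a mitochondrial survival protein, at 74.2. MX1 at 0.496 CPM per kilobase and OAS1 at 0.252 were low by comparison. IFITM1, IFITM2 and IFITM3 are near-identical in sequence, and how reads with several matches were counted is not stated, so the split of reads among them is uncertain. The IFIT genes lie within the span of LIPA, CMPK2 overlaps RSAD2, and PARP9 overlaps DTX3L. The strand used in counting is not stated either, so reads from such overlaps may be shared.

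After 24 h of exposure no member was a differentially expressed gene (DEG) by edgeR's quasi-likelihood test at an adjusted p of 0.05. The share of DEGs among all 16740 genes tested was 0%. At an unadjusted p of 0.05, 1 of 43 members passed (2.33%), against 1.65% of all genes. That member was HERC6, a relative of the ISG15 ligase HERC5, at 4.09 and 4.16 CPM in controls and 2.55 and 2.52 CPM in exposed cells. Its log2 fold change was −0.70 ± 0.26 (SE), with an adjusted p of 1. The median log2 fold change over the 43 members was 0.04, and over all genes it was 0.00086.

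At 15 weeks there was again no DEG among the members, and 0% of all genes passed. Unadjusted p-values were under 0.05 for 5 of 43 members (11.6%), against 4.92% of all genes. This count was 0 without control replicate 1, 1 without exposed replicate 2, 2 without exposed replicate 1 of that time, 8 without exposed replicate 2 of 30 weeks and 12 with each time point fitted alone. For UBE2L6, the E2 enzyme that carries ISG15, the controls held 29.2 and 24.4 CPM and exposed cells held 19.3 and 21.6 CPM. IFI6 stood at 33.3 and 26.0 CPM in controls and at 22.1 and 23.4 CPM in exposed cells. TRIM22, a ubiquitin ligase that restricts viral transcription, stood at 8.47 and 7.49 CPM against 6.27 and 4.87 CPM. IFI35 had 18.7 and 18.3 CPM in controls and 14.2 and 14.6 CPM in exposed cells. In these 4 the exposed samples lay below the controls, whereas MX1, a dynamin-like GTPase that traps viral nucleocapsids, had 12.8 and 11.2 CPM in controls and 17.3 and 16.1 CPM in exposed cells. The smallest adjusted p among the members was 0.909. In all, 30 of 43 members had a lower value in exposed cells, with a median log2 fold change of −0.15 against 0.0051 over all genes. DESeq2, limma-voom and limma-voom with surrogate variables also called no member at 24 h or at 15 weeks.

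After 30 weeks of exposure 15 of the 43 members were DEGs, 9 of them upregulated and 6 downregulated. Tetherin (BST2) and MX1 had the largest increases, while the guanylate-binding protein GBP2, the ISG15 ligase HERC5 and ISG15 itself had the largest decreases. The called members made up 34.9% of those tested, against 23.7% of all genes. Upregulated members were 20.9% against 12% of all genes, and downregulated members were 14% against 11.7%. The median log2 fold change of the members was 0.11, and 0.10 without CMPK2, whose controls were at 3 counts or fewer, against 0.0078 over all genes. The median size of the change, regardless of sign, was 0.37 against 0.30. With library totals alone as the scaling, which set the median of all genes at 0.22, 15 members rose and 3 fell, so the balance between the directions depended on the scaling. Without exposed replicate 2 there were 21 calls, 11 higher and 10 lower. Without control replicate 1 there were 9 calls, 6 higher and 3 lower. With the 30-week samples fitted alone there were 12 calls, 7 higher and 5 lower.

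**Figure D1:**
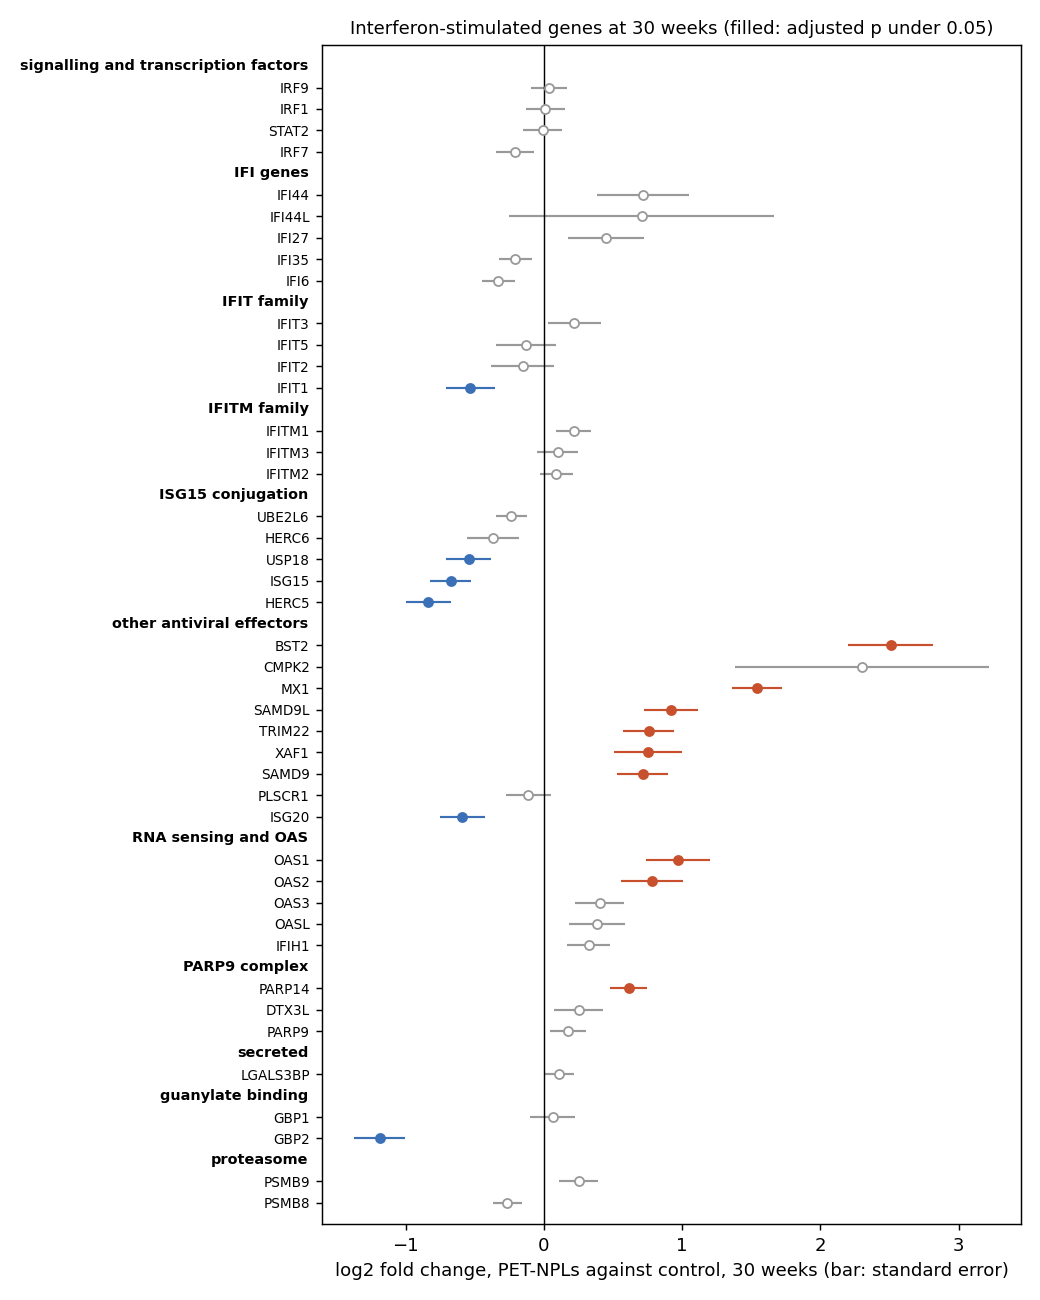
Log2 fold change of the 43 tested members at 30 weeks, exposed against control cells, with its standard error (horizontal bars), grouped by role. Filled points are the 9 upregulated (red) and 6 downregulated (blue) members with an adjusted p under 0.05, and open grey points are the others. The value of CMPK2 rests on controls with 0 or 1 counts.

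The samples of both groups did not overlap in 13 of these 15 members. The members were called on these same samples, so this adds no separate support to the calls. Over all tested members, the 4 exposed samples were all above the 3 controls in 8 (18.6%, all-gene share 14.3%). They were all below them in 7 (16.3%, all-gene share 13%). Those above were MX1, OAS1, OAS2, SAMD9, SAMD9L, PARP14, BST2 and TRIM22. Those below were ISG15, ISG20, HERC5, USP18, GBP2 and, without a call, UBE2L6 and PSMB8. The 2 called members whose groups overlapped were XAF1 and IFIT1.

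**Figure D2:**
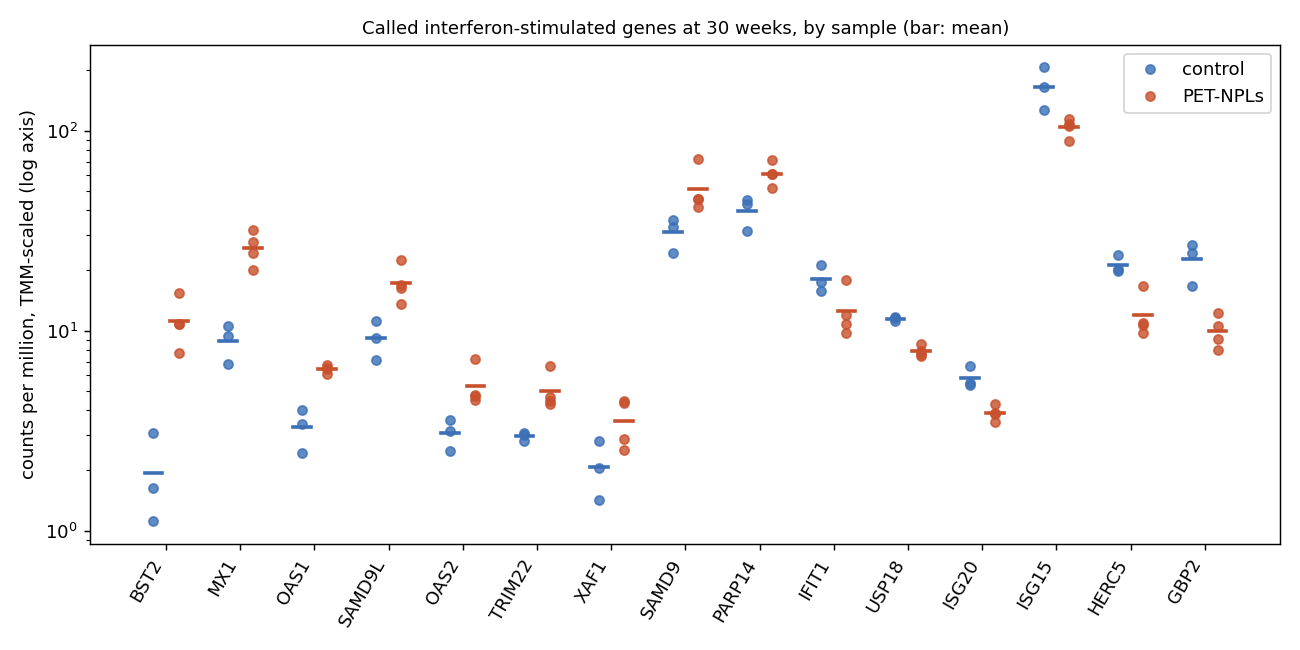
TMM-scaled CPM (log axis) of the 15 called members at 30 weeks, with 1 point per sample and a bar at the mean of the 3 control (blue) and 4 exposed (red) samples. Members are ordered from the largest increase (BST2) to the largest decrease (GBP2), and the groups overlap in XAF1 and IFIT1.

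Most of the upregulated members belonged to a class of other antiviral effectors, a remainder grouped apart from the IFIT, IFITM and guanylate-binding families. The grouping first planned had set MX1 with the IFIT and IFITM genes and SAMD9 with the HERC genes. The counts by class, here and below, therefore depend on the grouping. In this class 6 of 9 tested rose and 1 fell (all-gene shares 12% and 11.7%), although SAMD9 and XAF1 lost their calls in some alternatives. No member of those families rose, while 1 of 4 tested fell in the IFIT family and 1 of 2 in the guanylate-binding family. BST2 (chr19:17402939-17405630), which tethers budding virions to the cell surface, stood at 1.12, 1.62 and 3.08 CPM in the controls. In exposed cells it stood at 10.8, 7.74, 15.4 and 10.8 CPM. Every exposed sample was above every control, and the fitted change was 5.69-fold (log2 2.51 ± 0.31, adjusted p = 2.07e-05). MX1 (chr21:41420558-41459214) had 6.79, 9.42 and 10.6 CPM in the controls and 27.8, 20.2, 24.4 and 31.8 CPM in exposed cells. The groups did not overlap, and exposed cells were 2.91-fold higher (log2 1.54 ± 0.18, adjusted p = 1.42e-05). MX1 lies on chromosome 21, where 49.7% of 179 tested genes were upregulated and the median log2 fold change was 0.53; MX1 had rank 9 among them. The part of the chromosome in the change of MX1 was not tested.

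SAMD9 and SAMD9L are neighbouring genes on chromosome 7 (chr7:93099518-93117979 and chr7:93130056-93148385) whose proteins restrict poxviruses and limit cell growth. SAMD9L stood at 7.10, 11.1 and 9.20 CPM in controls and at 16.9, 22.5, 13.5 and 16.3 CPM in exposed cells, 1.89-fold higher (log2 0.92 ± 0.19, adjusted p = 0.00246). SAMD9 stood at 24.5, 35.8 and 33.1 CPM in controls and at 45.7, 71.9, 41.3 and 45.7 CPM in exposed cells (log2 0.72 ± 0.19, adjusted p = 0.0109). In both genes exposed replicate 2 was the highest sample, and the lowest exposed sample was still above the highest control. The call of SAMD9 was lost when control replicate 1 was left out and when the 30-week samples were fitted alone. TRIM22 (chr11:5689790-5710863) had 2.80, 3.07 and 3.01 CPM in controls and 4.45, 6.62, 4.28 and 4.68 CPM in exposed cells, 1.69-fold higher (log2 0.76 ± 0.18, adjusted p = 0.00724). XAF1 (chr17:6755447-6775647), a pro-apoptotic partner of the inhibitor of apoptosis XIAP, stood at 1.42, 2.06 and 2.79 CPM in controls and at 4.45, 2.52, 2.89 and 4.33 CPM in exposed cells. Its groups overlapped, since the highest control exceeded exposed replicate 2, and the log2 change was 0.75 ± 0.25 (adjusted p = 0.0365). This call was lost with upper-quartile scaling and in 7 other alternatives.

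Among the RNA-sensing genes, the oligoadenylate synthetases OAS1 and OAS2, which are activated by double-stranded RNA, rose, and no member of the 5 fell (all-gene shares 12% and 11.7%). OAS1 (chr12:112906962-112933219) stood at 4.00, 3.43 and 2.43 CPM in controls and at 6.70, 6.45, 6.08 and 6.48 CPM in exposed cells. The exposed samples were tightly grouped above the controls, at 1.96-fold (log2 0.97 ± 0.23, adjusted p = 0.00639). OAS2 (chr12:112978519-113011723) had 2.49, 3.14 and 3.58 CPM in controls and 7.24, 4.52, 4.69 and 4.75 CPM in exposed cells (log2 0.78 ± 0.22, adjusted p = 0.019). Exposed replicate 1 set OAS2 high, and without it, or without control replicate 1, the call was lost. OAS3, OASL and IFIH1 (MDA5, a sensor of long double-stranded RNA) had log2 fold changes of 0.40, 0.38 and 0.33 without a call. In the PARP9 complex, PARP14 (chr3:122680839-122730840), an ADP-ribosyltransferase, had 31.3, 42.9 and 45.2 CPM in controls and 61.1, 60.4, 51.6 and 71.0 CPM in exposed cells, 1.53-fold higher (log2 0.61 ± 0.14, adjusted p = 0.00368). Its partners PARP9 and DTX3L had log2 fold changes of 0.17 and 0.25 and were not called.

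In the ISG15 conjugation system 3 of 5 members were downregulated and none upregulated (all-gene shares 11.7% and 12%), and the call of USP18 was lost in several alternatives. ISG15 (chr1:1013497-1014540) stood at 207, 165 and 126 CPM in controls and at 88.8, 114, 108 and 105 CPM in exposed cells. All exposed samples were below the lowest control, at 1.6-fold lower (log2 −0.67 ± 0.15, adjusted p = 0.00358). HERC5 (chr4:88457119-88506163), the main ligase that attaches ISG15 to new proteins, stood at 19.8, 24.0 and 20.4 CPM in controls and at 10.7, 16.7, 9.77 and 10.9 CPM in exposed cells, 1.78-fold lower (log2 −0.83 ± 0.16, adjusted p = 0.00162). USP18 (chr22:18150170-18177397), which removes ISG15 and restrains the interferon receptor, had 11.2, 11.7 and 11.6 CPM in controls and 8.55, 7.88, 7.44 and 7.68 CPM in exposed cells (log2 −0.54 ± 0.16, adjusted p = 0.0238). The alternatives that lost its call were 8 of 26, the replicate block among them. UBE2L6 and HERC6 had log2 fold changes of −0.23 ± 0.11 (adjusted p = 0.139) and −0.37 ± 0.19 (adjusted p = 0.171). HERC5 and HERC6 lie on chromosome 4, where 31.9% of 561 tested genes were downregulated with a median log2 fold change of −0.32. USP18 lies on chromosome 22, where 20.6% of 398 were downregulated with a median of −0.18. The part of these chromosomes in the 3 genes was not tested.

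GBP2 (chr1:89106132-89126114), an interferon-induced GTPase that attacks intracellular pathogens, had the largest decrease. Its level was 16.7, 24.4 and 26.9 CPM in controls and 9.13, 12.3, 7.96 and 10.5 CPM in exposed cells. No exposed sample reached the lowest control, and the change was 2.28-fold lower (log2 −1.19 ± 0.18, adjusted p = 0.000202). Its neighbour GBP1 had a log2 fold change of 0.06 ± 0.16 (95% confidence interval −0.28 to 0.41) and was not called. ISG20 (chr15:88635632-88656483), an exonuclease that degrades viral RNA, was the member that fell in the class of other antiviral effectors. It had 6.62, 5.49 and 5.37 CPM in controls and 3.84, 3.85, 3.48 and 4.30 CPM in exposed cells (log2 −0.59 ± 0.16, adjusted p = 0.0159). With library totals as the scaling, and without control replicate 1, ISG20 was not called. IFIT1 (chr10:89392623-89406487), which binds viral RNA lacking a host cap, stood at 17.4, 21.3 and 15.9 CPM in controls and at 10.8, 17.9, 9.77 and 12 CPM in exposed cells. Exposed replicate 2 lay within the range of the controls, the log2 change was −0.53 ± 0.18 (adjusted p = 0.0421), and 16 of 26 alternatives lost the call.

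The remaining members did not pass the test at 30 weeks. Of the 4 transcription factors and signal transducers, STAT2, IRF1 and IRF9 had log2 fold changes of −0.01, 0.01 and 0.04, and IRF7 had −0.21. Their 95% confidence intervals lay between −0.50 and 0.32. IFITM1, IFITM2 and IFITM3, which block fusion of viruses with endosomes, had log2 fold changes of 0.21, 0.09 and 0.10. IFI6 had a value of −0.33 ± 0.12, with an adjusted p of 0.0608, and IFI44 had 0.72 ± 0.33 (adjusted p = 0.132). In the immunoproteasome, PSMB8 had −0.26 ± 0.10 and PSMB9 had 0.25 ± 0.14, with adjusted p-values of 0.0758 and 0.221. LGALS3BP, PLSCR1 (a membrane scramblase), IFIT2, IFIT3, IFIT5, IFI27, IFI35 and IFI44L were likewise not called. CMPK2, a mitochondrial nucleotide kinase, held 0, 1 and 1 counts in controls and 7, 4, 1 and 4 in exposed cells, too few for a fold. RSAD2, which the filter left untested, held 1, 1 and 1 counts in controls and 12, 8, 5 and 4 in exposed cells at this time.

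The exposure effect grew or turned between 15 and 30 weeks in 3 members, by the test of the difference itself (6.98% of members against 4.74% of all genes, and 2.66% of all genes for a more positive effect at 30 weeks). All 3 had a more positive effect at 30 weeks. For BST2 the effect was −0.43 ± 0.35 (log2) at 15 weeks, from 9.70 and 9.44 CPM in controls and 6.89 and 7.33 CPM in exposed cells, and 2.51 at 30 weeks. The difference of 2.94 ± 0.47 had an adjusted p of 0.00112 and was called in all 25 alternatives. TRIM22 went from −0.52 ± 0.22 to 0.76, a difference of 1.28 ± 0.29 (adjusted p = 0.016). This call was lost without control replicate 1 or exposed replicate 2 of 15 weeks. MX1 went from 0.49 ± 0.23 to 1.54, a difference of 1.06 ± 0.29 with an adjusted p of 0.0478, and 17 of 25 alternatives lost its call. Each effect was measured within its own batch, but the 30-week and 15-week effects come from different batches, and time and batch cannot be told apart.

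**Figure D3:**
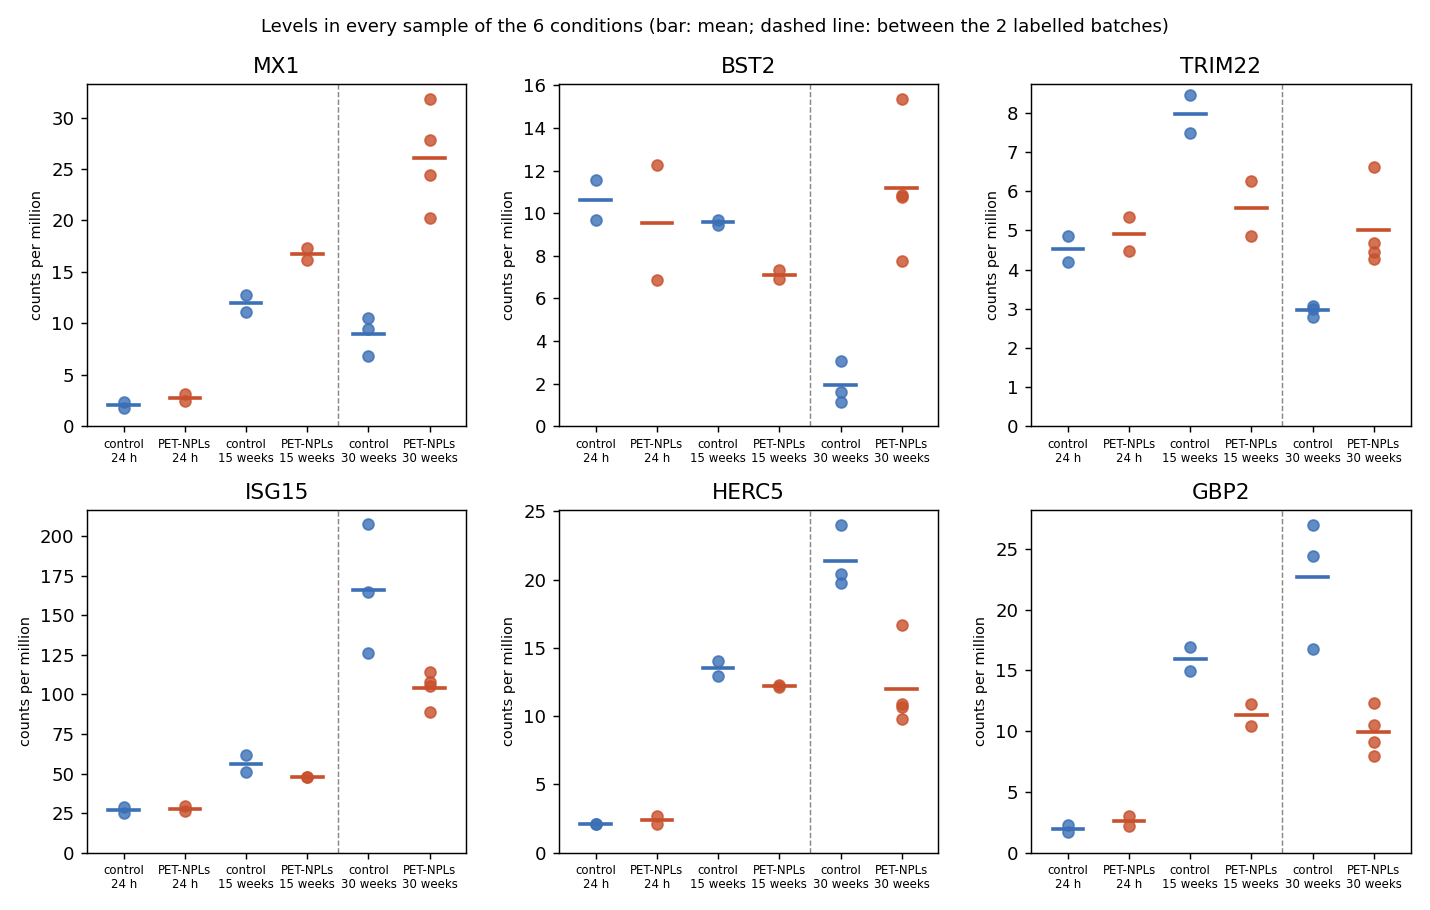
TMM-scaled CPM of MX1, BST2, TRIM22, ISG15, HERC5 and GBP2 in every control (blue) and exposed (red) sample of the 6 conditions, with a bar at the mean. The 30-week controls of BST2 lie between 1.12 and 3.08, below all other samples, and those of HERC5 and ISG15 lie above all other samples.

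BST2 was lower in the 30-week controls than in the controls of the earlier times, which lie in another batch. Controls held 9.66 and 11.5 CPM at 24 h, 9.70 and 9.44 CPM at 15 weeks, and 1.94 ± 1.02 CPM (SD, n = 3) at 30 weeks. Exposed cells held 12.2 and 6.86 CPM at 24 h and 11.2 ± 3.14 CPM (SD, n = 4) at 30 weeks. From 15 to 30 weeks the controls fell by 2.28 on the log2 scale (SE 0.34, adjusted p = 5.44e-05), and exposed cells had a change of 0.65 ± 0.31 (adjusted p = 0.0968). In TRIM22, too, the controls fell by 1.43 (SE 0.21, adjusted p = 4.63e-05), and the exposed cells had −0.15 ± 0.20 (adjusted p = 0.552). The SAMD9 controls fell by 0.99 (SE 0.22, adjusted p = 0.00129), and its exposed cells had −0.27 ± 0.20 (adjusted p = 0.305). PARP14 fell in both arms. Its controls went from 124 and 115 CPM to 39.8 ± 7.43 CPM (SD, n = 3), and its exposed samples went from 121 and 129 CPM to 61.0 ± 7.94 CPM (SD, n = 4). The respective log2 changes were −1.58 ± 0.16 and −1.04 ± 0.15. For BST2, TRIM22, SAMD9 and PARP14 alike, time and batch cannot be told apart in the changes from 15 to 30 weeks.

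Members also differed between time points in culture, in control and exposed cells alike. Between 24 h and 15 weeks, all within batch 1, 11 members rose and 4 fell in the controls (all-gene shares 12.7% and 12.2%), and 11 rose and 3 fell in exposed cells (all-gene shares 13.5% and 12.5%). Of these calls, 10 rises and 3 falls were made in both arms, which share the cell line, the batch and the fit, and none was opposite. The share of all genes called alike in both arms was not computed. XAF1 had the largest rise, from 0.485 and 0.350 CPM to 7.74 and 7.49 CPM in controls (log2 4.17 ± 0.38, adjusted p = 8.48e-07). In exposed cells it went from 0.255 and 0.191 CPM to 6.33 and 6.62 CPM (log2 4.84 ± 0.43, adjusted p = 5.98e-07). GBP2 went from 1.70 and 2.27 CPM to 15.0 and 16.9 CPM in controls, and from 2.17 and 3.01 CPM to 10.4 and 12.2 CPM in exposed cells. These are rises of 8.01-fold and 4.34-fold, with no overlap in either arm. The averages of KRT7, given above, were lower at 15 weeks than at 24 h in both arms, and its part in the members' changes was not tested.

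HERC5 rose from 2.08 and 2.13 CPM to 12.9 and 14.1 CPM in controls (6.4-fold) and from 2.13 and 2.67 CPM to 12.3 and 12.1 CPM in exposed cells (5.07-fold). MX1 rose from 1.77 and 2.38 CPM to 12.8 and 11.2 CPM in controls (5.76-fold) and from 3.10 and 2.48 CPM to 17.3 and 16.1 CPM in exposed cells. Smaller rises were seen in IFI6, from 10.8 CPM in both controls to 33.3 and 26.0 CPM (2.73-fold), and in IFITM1, from 11.9 and 14.7 CPM to 30.5 and 26.1 CPM (2.13-fold). ISG15, OASL, PARP9 and PARP14 also rose in both arms. IRF9, a DNA-binding part of the complex that acts on the ISRE, fell from 17.4 and 18.1 CPM to 12.1 and 11 CPM in controls and from 19.8 and 16.2 CPM to 9.83 and 9.80 CPM in exposed cells. IRF9 lies on chromosome 14, where 508 tested genes had a median log2 change of −0.67 in the controls. Its own change there was −0.62 ± 0.17, and the part of the chromosome was not tested. ISG20 and CMPK2 fell in both arms as well. At 15 weeks CMPK2 held 4 and 4 counts in controls and 2 and 2 in exposed cells, too few for a fold. DESeq2 did not call CMPK2 in the controls. A fit on the 8 samples of batch 1 alone called 26 members in the controls instead of 15, and without control replicate 1 of 15 weeks 9 were called.

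**Figure D4:**
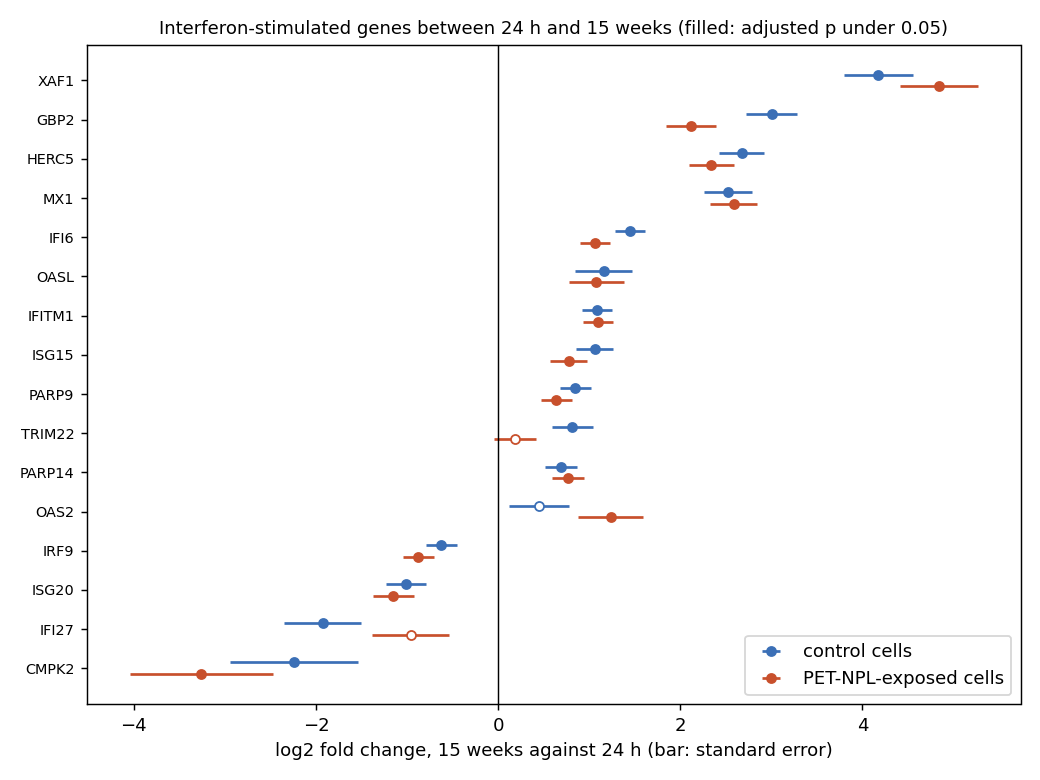
Log2 fold change between 15 weeks and 24 h for the 16 members called in either arm, with its standard error (horizontal bars), in control (blue) and exposed (red) cells. Filled points passed an adjusted p of 0.05. XAF1, GBP2, HERC5 and MX1 lie above a log2 fold change of 2 in both arms. The values of CMPK2 rest on 4 counts or fewer per sample at 15 weeks.

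Between 15 and 30 weeks 19 members rose and 8 fell in the controls (all-gene shares 25.6% and 24.6%), and 22 rose and 5 fell in exposed cells (all-gene shares 23.3% and 22.7%). Here 18 rises and 4 falls were common to both arms, and the share of all genes common to both was again not computed. The 30-week samples form a batch of their own, so time and batch cannot be told apart. ISG15 went from 51.0 and 61.5 CPM to 166 ± 40.5 CPM (SD, n = 3) without particles, and from 47.7 and 47.6 CPM to 104 ± 10.9 CPM (SD, n = 4) with them. In controls UBE2L6 rose from 29.2 and 24.4 CPM to 61.2 ± 4.12 CPM (SD, n = 3), and in exposed cells it rose from 19.3 and 21.6 CPM to 52.0 ± 4.01 CPM (SD, n = 4). For IFITM2 the controls rose from 11.7 and 9.38 CPM to 24.9 ± 2.90 CPM (SD, n = 3), and the exposed samples from 12.1 and 12.4 CPM to 26.5 ± 1.5 CPM (SD, n = 4). These 3 genes were higher at 30 weeks in every sample of both arms. XAF1, in contrast, was lower at 30 weeks than at 15 weeks in both arms, with log2 changes of −1.85 ± 0.27 in controls and −0.87 ± 0.25 in exposed cells (adjusted p = 5.17e-05 and 0.0101).

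The wider interferon pathway was described with a further list of 56 genes, of which 47 were tested. No gene of it was called at 24 h or 15 weeks. At 30 weeks 14 were upregulated and 4 downregulated (29.8% and 8.51% of those tested, against 12% and 11.7% of all genes). The genes of the ligands themselves did not exceed 10 counts in any sample, apart from IFNE. IFNG, IFNK, IFNL1 and IFNL2 had 0 counts in all 15 samples, IFNB1 did not exceed 1 count, and IFNA1 held between 0 and 10 counts. A count of 0 allows up to 3 counts of the library total, for counting error only. IFNE, with 27 to 136 counts, was the ligand that could be tested, and it was not called for exposure against control at any time. Between 24 h and 15 weeks IFNE was called lower in both arms.

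Of the 6 receptor chains tested, 4 rose and none fell. Over all genes 12% rose, and on chromosome 21, where these 4 genes lie, 49.7% of 179 tested genes rose. IFNAR1 stood at 43.9, 44.1 and 51.2 CPM in controls and at 90.0, 58.7, 71.2 and 86.1 CPM in exposed cells (log2 0.72 ± 0.15, adjusted p = 0.00283). IFNAR2 stood at 18.7, 21.4 and 26.4 CPM against 48.3, 27.5, 40.4 and 47.1 CPM (log2 0.88 ± 0.18, adjusted p = 0.00212). In both chains every exposed sample was above every control, and exposed replicate 2 was the lowest of its group. IFNGR2, of the interferon gamma receptor, and IL10RB, of the interferon lambda receptor, had log2 fold changes of 0.87 ± 0.13 and 0.80 ± 0.13. The 4 genes lie side by side, with ranks 28 to 59 of the 179 by log2 fold change, and the part of that chromosome in their rise was not tested. Of the 3 receptor kinases, JAK2 rose from 7.70, 9.75 and 10.1 CPM in controls to 12.3, 15.4, 11.8 and 12.6 CPM in exposed cells (log2 0.50 ± 0.14, adjusted p = 0.015), with no overlap of the groups. This call was lost without control replicate 1 and with the 30-week samples fitted alone. JAK1 and TYK2 had log2 fold changes of −0.02 and −0.07 and were not called. IRF3, which switches on interferon transcription, had −0.11 ± 0.12 (adjusted p = 0.535), and JAK1, TYK2 and IRF3 each turned sign in 2 to 4 of the 26 alternatives.

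Among the sensors of foreign RNA, RIGI was the gene with the largest decrease. It stood at 23.6, 28.7 and 20.4 CPM in controls and at 10.1, 13.3, 8.20 and 8.59 CPM in exposed cells, 2.41-fold lower (log2 −1.27 ± 0.16, adjusted p = 3.06e-05). All exposed samples were below all controls. DHX58 (LGP2) and the endosomal sensor TLR3 fell too, by 0.59 and 0.73 on the log2 scale. TLR3 lies on chromosome 4, where 31.9% of 561 tested genes were downregulated, and the part of that chromosome was not tested. IRF5, an inducer of inflammatory cytokines and interferon, rose from 1.63, 2.20 and 2.58 CPM in controls to 6.16, 5.85, 6.36 and 7.15 CPM in exposed cells, 2.97-fold (log2 1.57 ± 0.21, adjusted p = 4.09e-05). MX2, next to MX1 on chromosome 21 and with rank 11 there, stood at 1.63, 2.06 and 2.47 CPM in controls and at 7.61, 3.99, 5.01 and 5.70 CPM in exposed cells (log2 1.43 ± 0.25, adjusted p = 0.000501). Of 15 further effectors 7 rose and 1 fell (all-gene shares 12% and 11.7%), with log2 fold changes of 0.66 ± 0.14 for the RNA editor ADAR, 0.66 ± 0.11 for the dNTP hydrolase SAMHD1 and 0.70 ± 0.15 for the DNA sensor IFI16. The effector that fell was DDX60L, at −0.59 ± 0.15 (adjusted p = 0.00785), also on chromosome 4.

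**Figure D5:**
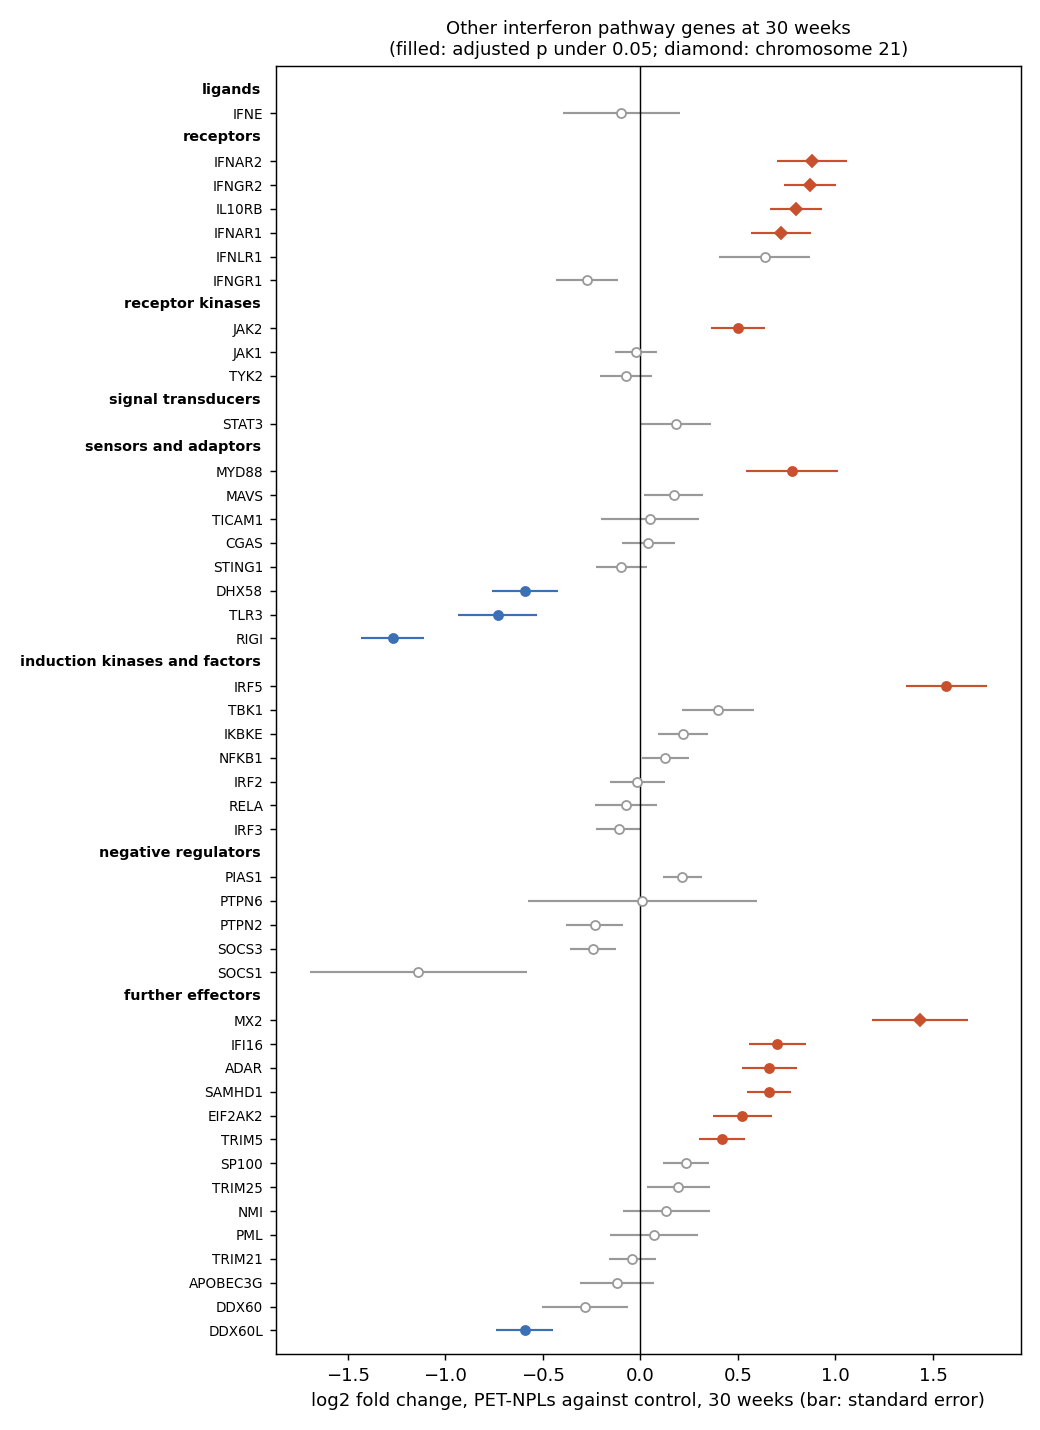
Log2 fold change at 30 weeks, exposed against control cells, of 45 of the 47 tested genes of the wider interferon pathway with its standard error (horizontal bars), grouped by role. Filled points are 13 of the 14 upregulated (red) and the 4 downregulated (blue) genes, and diamonds mark IFNAR1, IFNAR2, IFNGR2, IL10RB and MX2 on chromosome 21, all upregulated.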

How the data were processed

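Total RNA of 15 BEAS-2B samples was sequenced from ribosome-depleted stranded libraries. The authors filtered reads with Rfastp, which discarded those under 20 bases, aligned the rest to GRCh38 and assigned them to genes with Rsubread (featureCounts in the submitters' notes), and the deposited values are raw counts without normalization. Counting strand and the treatment of reads with several matches are not given in the sources used here.

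Counts were filtered with filterByExpr on the 6 conditions (16740 genes of 28395), scaled by TMM and fitted with edgeR 4.0.16 (R 4.3.3) by its quasi-likelihood test on all 15 samples with 1 mean per condition. The Benjamini-Hochberg adjustment ran over the 16740 genes, and a gene with an adjusted p under 0.05 was called. CPM are TMM-scaled, errors of log2 fold changes are standard errors, and CPM per kilobase use the GENCODE exon union. The procedure was tested on simulated data. This test differs from the limma-voom test with surrogate variables of the study's methods, which was run as an alternative with 2 surrogate variables (limma 3.58.1, sva 3.50.0), as was DESeq2 1.42.0.

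Members and lists were chosen with earlier results of these data known. Values in every sample are given for members called at 30 weeks, for the 6 smallest p-values in controls between 24 h and 15 weeks and the 4 between 15 and 30 weeks, and for members under an unadjusted p of 0.05 at 24 h or 15 weeks, the latter named after their values were seen, as were OASL, IRF9, IFI44 and the uncalled members given by log2 fold change. Pathway genes named are the 12 with the smallest adjusted p at 30 weeks, with IFNAR1, IFNAR2, JAK1, TYK2 and IRF3 always; some genes of the pathway and marker lists enter the counts but are not reported here by name. JAK2, DHX58, TLR3 and the ligands were added after their values were seen. With 23143202 to 31459990 counts per sample, 3 counts were taken as the floor.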

Additional observations from a re-analysis of the deposited data

Results flagged for a closer look

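Single samples were compared within the 4 exposed samples of 30 weeks, the group large enough for it, over the 43 tested members. In 4 members the highest sample lay far from the other 3 by Dixon's ratio, where chance flags about 1 group in 20. Exposed replicate 2 was the high sample in 3 of them: IFIT5 at 30.1 CPM (16, 15.7 and 17.0 CPM in the others), HERC5 at 16.7 CPM and SAMD9 at 71.9 CPM. OAS2 was high in exposed replicate 1, at 7.24 CPM.

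The exposure effect differed between 15 and 30 weeks, by the test of the difference, in 3 members and 2 genes of the wider pathway. The difference (30 weeks minus 15 weeks, log2) was 2.94 for BST2, 1.28 for TRIM22 and 1.06 for MX1. For IRF5 it was 1.69 ± 0.32 (adjusted p = 0.00474), and for RIGI it was −1.42 ± 0.27 (adjusted p = 0.00429). RIGI stood at 15.8 and 16.3 CPM in controls and 16.1 and 19.5 CPM in exposed cells at 15 weeks. The 2 time points lie in different batches, and time and batch cannot be told apart.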

How the results depend on the processing

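Results were recomputed under 26 alternatives, and no direction of a called result reversed. At 24 h and 15 weeks the count of called members was 0 in each of them. At 30 weeks the count, 15 as reported, was 9 at an adjusted p under 0.01 and ranged from 9 to 21 with 1 replicate left out; ISG15, MX1, OAS1, HERC5, SAMD9L, PARP14, BST2, TRIM22 and GBP2 were called in all 26. The 3 members with a different effect at 30 and 15 weeks became 7 in limma-voom with surrogate variables and 1 at an adjusted p under 0.01, with 1 to 6 when a replicate was left out (1 without control replicate 1 or exposed replicate 2 of 15 weeks, 6 without exposed replicate 2 of 30 weeks). In controls between 24 h and 15 weeks, 15 calls became 26 with surrogate variables and 26 when batch 1 was fitted alone, with 9 to 21 when a replicate was left out. The ranges with a replicate left out were 11 to 17 for exposed cells between 24 h and 15 weeks, 23 to 31 for controls and 20 to 31 for exposed cells between 15 and 30 weeks, and 13 to 24 for pathway genes at 30 weeks. Pathway genes called at 30 weeks, 18 as reported, were 11 with each time point fitted alone and 11 at an adjusted p under 0.01, and those at 15 weeks were 2 with each time point fitted alone. The cause of these changes was not tested, except that a stricter threshold calls fewer genes by construction. With the replicate number as a block, 13 members were called at 30 weeks, 2 for the difference of effects, 16 and 15 between 24 h and 15 weeks in controls and exposed cells, 28 and 25 between 15 and 30 weeks, and 18 pathway genes at 30 weeks. Deviations of samples with the same number correlated at −0.11 at 24 h, 0.07 at 15 weeks and −0.22, 0.45 and 0.13 at 30 weeks, so the numbers were not taken to pair samples. Depth limited RSAD2, CMPK2 and IFI44L, which held 25 counts or fewer in every sample.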
